A study of Homo sapiens with 4 samples.

Results

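The polyamine genes of this knockout screen were 4 genes of synthesis (ODC1, AMD1, SRM and SMS) and 3 genes of breakdown (SAT1, SMOX and PAOX). They were chosen by symbol and not by a measured value, although earlier results of these data were known. All 7 were found among the 1773 genes that the library targets with 4 sgRNAs each. Their 28 sgRNAs were part of 7142 in all. Each sgRNA guides Cas9 to its target gene and also serves as a barcode: how often it is counted reflects how many living cells carry that knockout. The guides are known here only by number, and their sequences and cut sites were not analysed here.

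Polyamines are small positively charged molecules that bind nucleic acids and that dividing cells make in large amounts. ODC1 makes putrescine from ornithine, AMD1 decarboxylates S-adenosylmethionine to give the aminopropyl donor, and SRM and SMS use that donor to build spermidine and then spermine. SAT1 acetylates spermidine and spermine for export or oxidation, PAOX oxidizes the acetylated forms in peroxisomes, and SMOX converts spermine straight back to spermidine while releasing hydrogen peroxide. In the colon, ODC1 is known as an enzyme with raised activity in tumors, and SAT1 is known to be induced by platinum drugs.

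The cells were HCT116, an established human colon carcinoma line. All cells carried the lentiviral knockout library and had passed puromycin selection, after which, per the labels, they were divided into 4 groups. 1 library came from cells given PBS and 3 from cells given 10 µM oxaliplatin for 7 days, a platinum compound that forms DNA crosslinks. No library from before treatment was analysed here, so fewer copies at the start and loss during growth cannot be told apart. Beyond that division, no source used here says how the 3 oxaliplatin libraries relate to separate transductions or cultures, so the p-values reflect the variation among these libraries alone, and that variation may be technical.

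Total counts were 8934799 in the library labelled PBS and between 10494731 and 27563013 in the oxaliplatin libraries. The library labelled PBS stood apart, with 1926 sgRNAs (27.0%) under 3 counts against 7 to 320 in the oxaliplatin libraries. Of the polyamine sgRNAs, 5 of 28 (17.9%) were under 3 counts there and 0 in each oxaliplatin library. Oxaliplatin replicate 1 also stood apart from replicates 2 and 3, and gene values without it are given beside those it moves most. Every fold change uses the 1 library labelled PBS, which the 3 comparisons share. Each direction rests on the labels, which the counts of these genes cannot check, and if the labels were exchanged every sign below would turn.

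Knockouts of the polyamine genes did not move as a group. 4 of the 28 sgRNAs passed the test across all sgRNAs, 1 each of AMD1, SMS, SMOX and PAOX, and all 4 were higher with oxaliplatin and had 0 to 2 counts with PBS. None was called lower. The 23 sgRNAs with 3 or more counts with PBS, which include every sgRNA of ODC1, SRM and SAT1, did not pass in either direction.

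**Figure D1:**
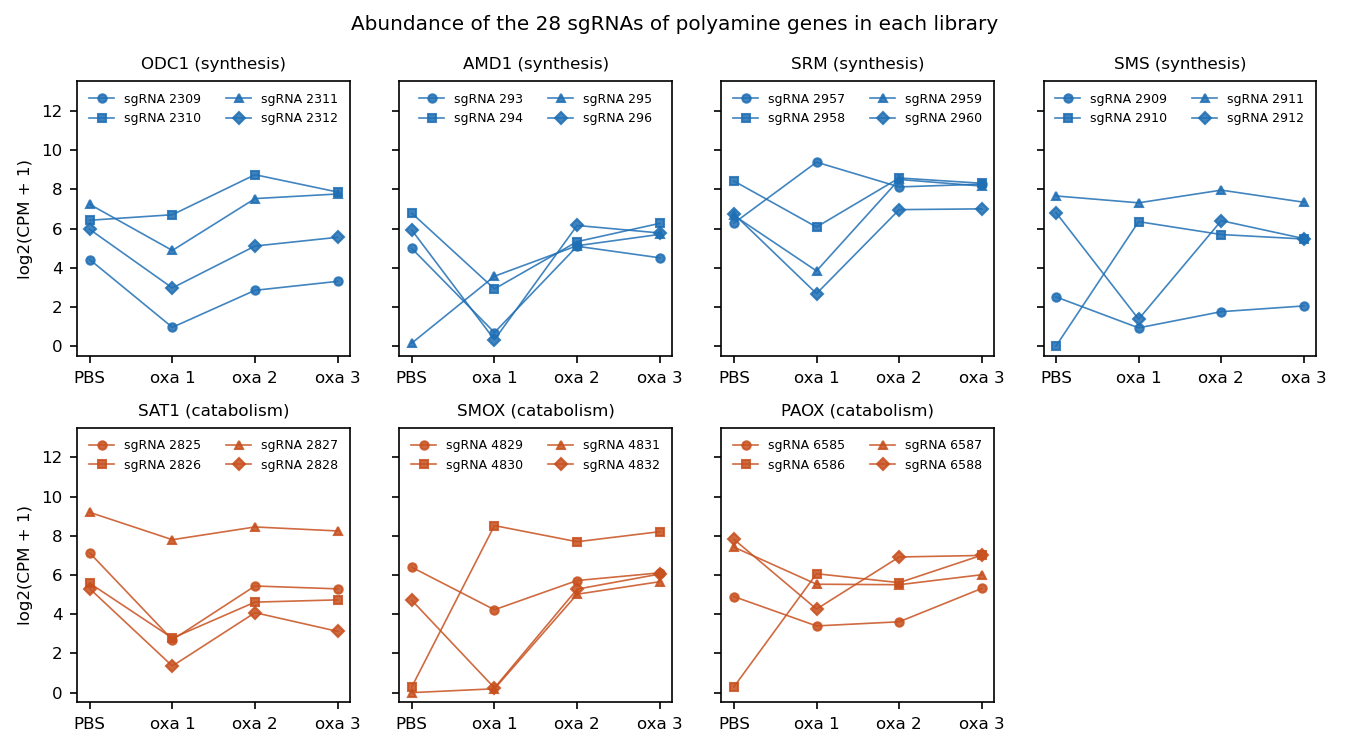
Abundance as log2(CPM + 1) on the y axis, where CPM is a count divided by the total of its library on the usual CPM scale, for the 4 sgRNAs of each gene in the library labelled PBS and oxaliplatin replicates 1, 2 and 3 (x axis). Each symbol is 1 sgRNA, blue for synthesis and orange for breakdown, and lines only join the points of 1 sgRNA. The 5 sgRNAs near 0 with PBS were 1 each of AMD1, SMS and PAOX and 2 of SMOX, and sgRNAs 296 of AMD1 and 4831 and 4832 of SMOX were the lowest in oxaliplatin replicate 1.

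The test was edgeR's quasi-likelihood test on the counts, with Benjamini-Hochberg adjustment over 7126 sgRNAs, a threshold of 0.05 and the lone library labelled PBS assumed to vary like the oxaliplatin libraries. It called 4 of 28 polyamine sgRNAs higher, against 8.31% of all sgRNAs, and 0 lower, against 0% of all. At an unadjusted p under 0.05 it gave 5 polyamine sgRNAs higher and 0 lower (1839 and 104 of all). DESeq2 called 6 higher and 0 lower (2027 and 29 of all). All 4 belong to the sgRNAs with under 3 PBS counts, which can pass only as higher. The 4 calls lay close to the threshold and were all lost when libraries were scaled by total counts, with 0 of all sgRNAs then called higher by edgeR (1467 at an unadjusted p under 0.05).

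sgRNA 295 of AMD1 had 1 count in the library labelled PBS and 299, 355 and 569 in oxaliplatin replicates 1, 2 and 3 (adjusted p = 0.0495 by edgeR). sgRNA 2910 of SMS had 0 counts with PBS and 2220, 532 and 481 with oxaliplatin (adjusted p = 0.0474 by edgeR). Against a floor of 3 counts, it was at least 447-, 142- and 113-fold higher after scaling by median ratios, and a count of 0 allows up to 0.336 CPM there. Both are guides to synthesis genes that were almost missing with PBS and plentiful in every oxaliplatin library, while the other 3 guides of the same genes were not called.

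Among the guides to breakdown genes, sgRNA 4830 of SMOX had 2 counts with PBS and 10101, 2168 and 3293 with oxaliplatin (adjusted p = 0.0494 by edgeR). Its scaled ratios were 3053 (95% exact interval 845 to 25214), 869 (240.1 to 7176) and 1163 (321.6 to 9604), where the intervals cover counting error only. sgRNA 6586 of PAOX had 2 counts with PBS and 1818, 502 and 1427 with oxaliplatin (adjusted p = 0.0446 by edgeR). The fifth guide of this kind, sgRNA 4831 of SMOX, had 0 counts with PBS and 4, 330 and 552 with oxaliplatin, and did not pass (adjusted p = 0.145 by edgeR). Its count in oxaliplatin replicate 1 was thus as near to absent as in the library labelled PBS.

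**Figure D2:**
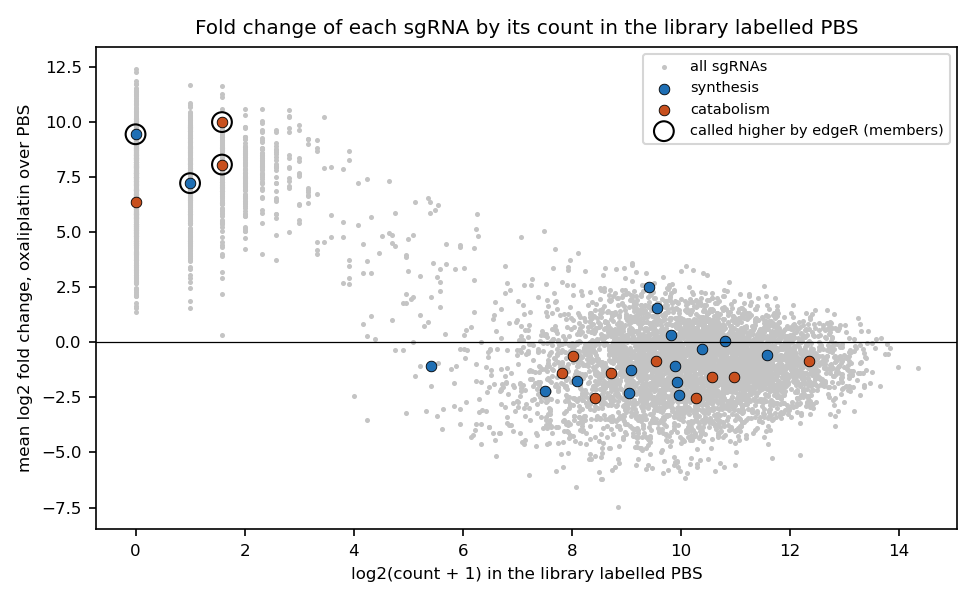
Mean log2 fold change over the 3 oxaliplatin libraries (y axis) against log2(count + 1) in the library labelled PBS (x axis), for all sgRNAs (grey) and for those of synthesis (blue) and breakdown (orange) genes. Open circles mark the 4 polyamine sgRNAs that edgeR called higher, all with 0 to 2 PBS counts, in the same range as grey points of equal count.

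The well-counted guides gave a different picture. 22 of the 28 sgRNAs had 100 or more PBS counts, and after scaling 11 of them were below it in all 3 oxaliplatin libraries and 2 were above it in all 3. Over all sgRNAs of that depth these shares were 52.4% and 11.7%, so the polyamine guides lay near the background of the library. Their median log2 fold change, averaged over the libraries first, was -1.34, against -0.96 for all 4859 such sgRNAs. Over all 28 guides, 12 were below and 7 above in all 3, against 36.8% and 37.6% of the 7026 sgRNAs with a value in each comparison.

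Per gene, SAT1 had the lowest and SMOX the highest fold change of the 7. The fold change of a gene was the median over its 4 sgRNAs of log2((oxaliplatin + 1)/(PBS + 1)) on scaled counts. SAT1 was at -1.90 ± 0.88 (SD, n = 3 oxaliplatin libraries) and SMOX at 3.25 ± 2.52. The median over all genes was 0.15, 0.24 and 0.23 in replicates 1, 2 and 3, and other scalings moved it, to -0.72, 0.33 and 0.41 with total counts and to 1.16, 0.67 and 0.53 with TMM. Fold changes relative to that median are therefore given too, and these hardly depend on the scaling. With 1 library labelled PBS, no exact permutation test over samples can give a p under 0.25, so gene fold changes carry no test of their own.

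ODC1, the first and regulated step of synthesis, had 4 well-counted guides that differed in direction. sgRNA 2310 had 757 counts with PBS and 2844, 4492 and 2579 with oxaliplatin, and lay above PBS in all 3 libraries at 1.57 ± 0.59 on the log2 scale. sgRNA 2309 had 182 counts with PBS and 26, 65 and 99 with oxaliplatin, and lay below in all 3 at -2.21 ± 1.11. The gene was at -1.88, -0.37 and -0.12 in replicates 1, 2 and 3, or -0.997 ± 0.897 relative to all genes, a mean hardly larger than its SD, and 25.7% of genes had a lower mean fold change. Without replicate 1 it was at -0.49. Against genes valued only from guides with at least 100 PBS counts, as all of its guides have, ODC1 was at 0.19 ± 0.50 with 57.7% of 1748 genes lower, and with summed counts at 0.53, so its side of the median depended on the summary.

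AMD1, which supplies the aminopropyl groups, differed mainly between the oxaliplatin libraries. sgRNA 296 had 532 counts with PBS and 7, 737 and 598 with oxaliplatin, and sgRNA 293 had 274 counts with PBS and 17, 348 and 242. Both were scarce in oxaliplatin replicate 1 alone and nearer to their PBS level in the others. sgRNA 294 had 976 counts with PBS and 181, 412 and 845 with oxaliplatin, below PBS in all 3 after scaling. The gene was at -3.89, 0.09 and -0.51, or -1.64 ± 2.09 relative to all genes, which does not exceed the spread between libraries. In replicate 1 only 3.61% of genes were lower, while in replicate 2 it was 46.2%. Without replicate 1 the relative mean was -0.45, and with guides of at least 100 PBS counts it was -0.79 ± 2.08.

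SRM, the spermidine synthase, had the highest mean log level of its guides with PBS among the 7 genes, although SAT1 had more counts in sum (7238 against 5586). SRM had a mean log2(CPM + 1) of 7.03 with PBS and 5.49, 8.04 and 7.93 with oxaliplatin. sgRNA 2957 had 682 counts with PBS and 18391, 2913 and 3412 with oxaliplatin, above PBS in all 3 at 2.54 ± 1.29, but it was not called (adjusted p = 0.357 by edgeR). sgRNA 2959 had 899 counts with PBS and 366, 3794 and 3189 with oxaliplatin, so that replicate 1 lay on the other side of PBS from replicates 2 and 3. The gene was at -1.74, 0.95 and 0.70, or -0.24 ± 1.43 relative to all genes. It lay above the median of all genes in replicates 2 and 3 and below it in replicate 1, and without replicate 1 the relative mean was 0.59. Against genes valued only from guides with at least 100 PBS counts, as all of its guides have, SRM was at 0.95 ± 1.05 with 82.0% of genes lower, and with summed counts at 0.97.

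SMS, the spermine synthase, lay below the median of all genes in each oxaliplatin library by the median over its guides. With summed counts it was at 0.19 relative to all genes, so its side depended on the summary. Beside sgRNA 2910, described above, sgRNA 2911 had 1800 counts with PBS and 4349, 2600 and 1795 with oxaliplatin. sgRNA 2912 had 997 counts with PBS and 44, 876 and 488 with oxaliplatin, and sgRNA 2909 had 42 with PBS and 25, 25 and 35. The 4 guides of this gene spanned 11.9 on the log2 scale in their mean fold change, against a median span of 8.74 over all genes. The gene was at -0.44, -0.15 and -0.63, or -0.61 ± 0.23 relative to all genes, with 35.6% of genes lower. With its 2 guides of at least 100 PBS counts it was at -0.18 ± 0.74 relative to genes valued that way.

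SAT1, the acetyltransferase that starts breakdown, was the only one of the 7 genes whose 4 guides were all below PBS in all 3 oxaliplatin libraries after median-ratio scaling, a pattern that 1.75% of all genes had. With TMM, 3 of its 4 guides were below in all 3, sgRNA 2827 being the exception, and 0.395% of all genes had the pattern. Both shares include genes with guides nearly absent with PBS, which can hardly lie below it. All 4 guides of SAT1 had at least 344 PBS counts. Of all sgRNAs with at least 100, 52.4% were below in all 3 with median ratios and 37.3% with TMM. The share among genes of like depth was not computed. sgRNA 2825 had 1241 counts with PBS and 151, 445 and 426 with oxaliplatin, sgRNA 2828 had 344 counts with PBS and 43, 167 and 86, and both were near -2.5 on the log2 scale (-2.53 ± 1.07 and -2.51 ± 1.17). sgRNA 2826 had 419 counts with PBS and 162, 247 and 285 with oxaliplatin. sgRNA 2827, the most abundant polyamine guide with PBS, had 5234 counts there and 6119, 3663 and 3377 with oxaliplatin, and after scaling was at -0.82 ± 0.32. These guides spanned 1.71 on the log2 scale, less than the 5th percentile of all genes, 1.97. That percentile includes genes with guides nearly absent with PBS, of which SAT1 had none. AMD1, SMS, SMOX and PAOX, each with at least 1 guide under 3 PBS counts, spanned 9.54 to 11.9. ODC1 and SRM, with none, spanned 3.78 and 3.60. As a gene SAT1 was at -2.89, -1.22 and -1.59, or -2.10 ± 0.82 relative to all genes, with 6.09% of genes lower, and at -1.64 without replicate 1. Against genes valued only from guides with at least 100 PBS counts, it was at -0.92 ± 0.47, with 20.4% of 1748 genes lower. None of its guides passed edgeR's test (the lowest adjusted p was 0.333).

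SMOX, the spermine oxidase, lay high through the guides that were nearly absent with PBS. Its other guides were sgRNA 4829, with 743 counts with PBS and 489, 542 and 759 with oxaliplatin, and sgRNA 4832, with 225 counts with PBS and 5, 397 and 727. Neither of these was called, and the first lay below PBS in all 3 libraries after scaling. SMOX as a gene was at 0.37, 4.36 and 5.03, or 3.05 ± 2.47 relative to all genes, with 53.1%, 87.9% and 89.5% of genes lower in replicates 1, 2 and 3. Without replicate 1 the relative mean was 4.46. With only its 2 guides of at least 100 PBS counts SMOX was at -3.61, -0.14 and 0.36. Relative to genes valued that way this was -2.13, 0.63 and 1.04, or -0.15 ± 1.72, with 44.6% of 1748 genes lower. With counts under 3 set to 3 the mean fold change of SMOX over the libraries was 2.26 in place of 3.25.

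PAOX, the oxidase of acetylated polyamines, had 3 well-counted guides beside sgRNA 6586. sgRNA 6588 had 2013 counts with PBS and 501, 1260 and 1414 with oxaliplatin, and sgRNA 6587 had 1526 counts with PBS and 1246, 466 and 710, both below PBS in all 3 after median-ratio scaling (with TMM, only the first). sgRNA 6585 had 258 counts with PBS and 264, 118 and 433 with oxaliplatin. PAOX was at -0.85, -1.22 and -0.38, or -1.02 ± 0.43 relative to all genes, with 24.99% of genes lower. With guides of at least 100 PBS counts only, it was at -0.18 ± 0.59 relative to all genes valued that way.

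**Figure D3:**
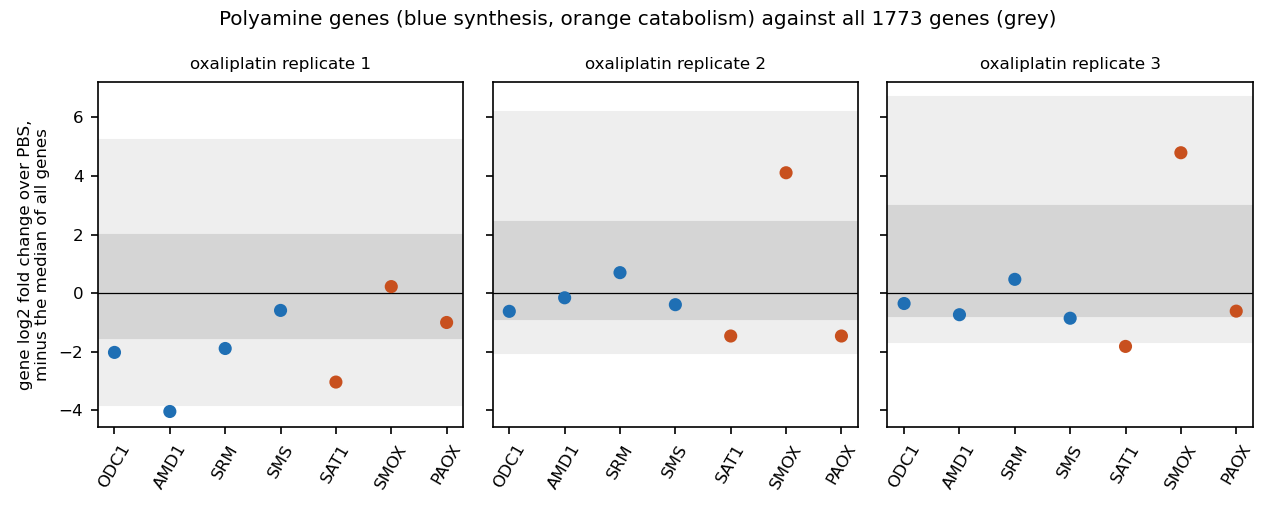
Log2 fold change of each polyamine gene over the library labelled PBS, minus the median of all 1773 genes (y axis), in oxaliplatin replicates 1, 2 and 3 (panels). Points are genes, blue for synthesis and orange for breakdown, the light grey band holds the 5th to 95th percentile of all genes and the darker band the quartiles. AMD1 at -4.04 in replicate 1 and SAT1 at -1.82 in replicate 3 lay just outside the light band, and the other points lay inside it.

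On counts summed per gene, edgeR called 0 of the 7 genes, against 0% of all 1823 entries higher and 0% lower, where entries include 50 of 1 sgRNA. At an unadjusted p under 0.05 this gave 1 of the 7 higher, SMOX, and 0 lower (85 and 33 of all entries), and DESeq2 called SMOX higher (123 higher and 37 lower of all). Most SMOX counts with oxaliplatin came from sgRNA 4830, which had 2 with PBS: 10101 of 10599, 2168 of 3437 and 3293 of 5331. SMOX was at 2.27 (SE 0.73, adjusted p = 0.699), SAT1 at -0.91 (SE 0.46, adjusted p = 0.719), SRM at 0.99 (SE 0.62, adjusted p = 0.772) and ODC1 at 0.64 (SE 0.73, adjusted p = 0.833) in edgeR. The log2 fold changes of AMD1, SMS and PAOX lay between -0.55 and 0.24, with adjusted p from 0.823 to 0.903 in edgeR.

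Synthesis and breakdown genes did not separate. The median over the 4 synthesis genes was -1.81, -0.03 and -0.31 in oxaliplatin replicates 1, 2 and 3, and that over the 3 breakdown genes -0.85, -1.22 and -0.38. The breakdown median was the value of PAOX alone in each library. SAT1 at -2.89, -1.22 and -1.59 and SMOX at 0.37, 4.36 and 5.03 lay on either side of it. Synthesis minus breakdown was -0.95, 1.19 and 0.07, or 0.10 ± 1.07 (SD, n = 3), less than the spread between libraries. Replicates 1 and 2 thus pointed in opposite ways. In levels, the mean log2(CPM + 1) of the guides was 5.44 for synthesis and 4.92 for breakdown with PBS, 3.81 and 3.92 in oxaliplatin replicate 1, 6.24 and 5.66 in replicate 2, and 6.17 and 6.06 in replicate 3, against 4.91, 4.34, 5.82 and 6.13 over all sgRNAs.

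With only guides of at least 100 PBS counts, 13 of synthesis and 9 of breakdown, the median of the synthesis genes was above that of the breakdown genes in each library. The difference was then 0.79, 1.16 and 0.61, or 0.85 ± 0.28. The breakdown median in it was the value of SAT1 in replicates 1 and 2 (-2.89 and -1.22) and of PAOX in replicate 3 (-1.01). Of these guides, 7 of 9 for breakdown and 4 of 13 for synthesis were below PBS in all 3 libraries, beside the 52.4% given above for all sgRNAs of that depth, and 0 of 9 and 2 of 13 were above. With TMM these became 5 of 9 and 4 of 13 below, beside 37.3% of all sgRNAs of that depth. SAT1 alone gave 4 of the 7 breakdown guides below with median ratios, beside 2 of 3 for PAOX and 1 of 2 for SMOX. It gave 3 of the 5 with TMM. The difference between the classes was not tested, since it rests on 7 chosen genes and the 3 values share 1 library labelled PBS.

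Without oxaliplatin replicate 1 many more guides passed. edgeR then called 8 polyamine sgRNAs higher, against 38.3% of all sgRNAs, and 2 lower, against 15.4% of all. The 8 were the 5 guides with under 3 PBS counts, sgRNA 2310 of ODC1 and sgRNAs 2957 and 2959 of SRM. The 2 that fell were sgRNA 2825 of SAT1 (log2 fold change -1.46, adjusted p = 0.00624 by edgeR) and sgRNA 6587 of PAOX (-1.36, adjusted p = 0.00703 by edgeR). On summed counts ODC1, SRM and SMOX were called higher, 3 of 7 against 22.9% of all entries, and SAT1 lower, 1 of 7 against 18.2%. The library labelled PBS is assumed there to vary as little as replicates 2 and 3. Summed counts are led by the most abundant guides of a gene. In replicates 2 and 3, sgRNA 4830 gave 2168 of 3437 and 3293 of 5331 SMOX counts. For ODC1, sgRNA 2310 gave 4492 of 6832 and 2579 of 5598. For SAT1, sgRNA 2827 gave 3663 of 4522 and 3377 of 4174. In SRM no guide gave more than 4001 of 12007 and 3522 of 11541. By the median over its guides, ODC1 was at -0.49 relative to all genes without replicate 1. Without replicate 2, 2 of the guides of the first test stayed past the threshold, those of SMS and PAOX, beside 590 of 7114 sgRNAs called higher in all. Without replicate 3 only that of SMS did, beside 347 of 7060 called higher in all.

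**Figure D4:**
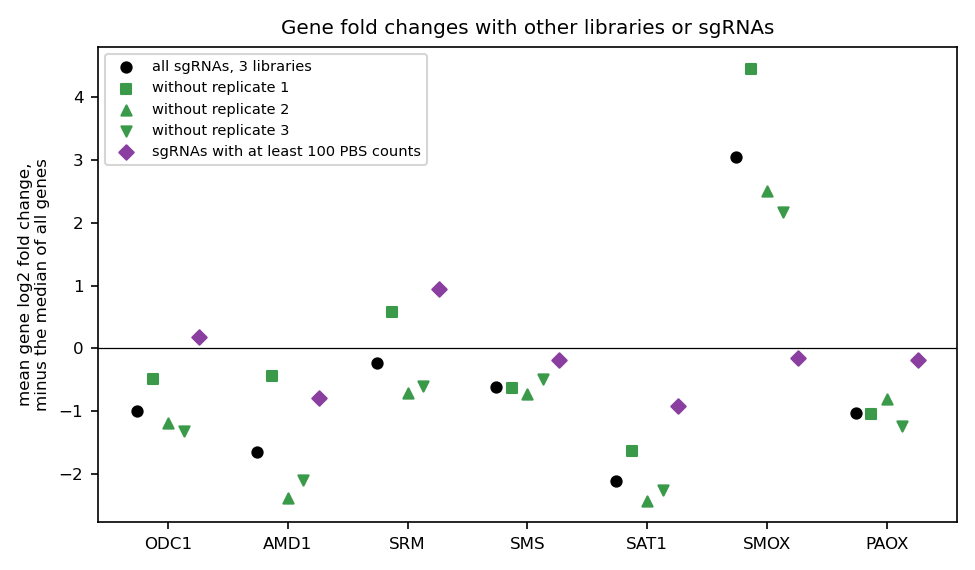
Mean gene log2 fold change over the oxaliplatin libraries, minus the median of all genes (y axis), for each polyamine gene (x axis), with all libraries and sgRNAs (black), without 1 oxaliplatin library (green) and with guides of 100 or more PBS counts alone (purple). SAT1 was at -2.10 with all and between -2.42 and -0.92 in the others, while SMOX ranged from 4.46 without replicate 1 to -0.15 with well-counted guides.

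Of 24 listed genes around the pathway, 16 were targeted. Of these, 5 act around ornithine and agmatine, and 6 make S-adenosylmethionine or salvage methylthioadenosine, the byproduct of SRM and SMS. The last 5 were listed under acetylation, oxidation, transport, regulation and use of polyamines, and their own activity on polyamines was not examined. Among the 64 sgRNAs of the 16 genes, 5 were called higher by edgeR and 0 lower, near the 8.31% of all sgRNAs. On summed counts 0 of the 16 genes passed. The called guides were 1 each of OAT, AGMAT, MAT1A, MAT2B and ALDH9A1, with 0 to 6 counts in the library labelled PBS. AGMAT, which hydrolyzes agmatine to putrescine, had the highest gene fold change, 7.53 ± 0.62, followed by MAT1A, a methionine adenosyltransferase mostly of liver, at 4.59 ± 1.31, and AGMAT had 3 of 4 guides under 3 PBS counts. The study took AGMAT forward from these libraries among genes it describes as downregulated with oxaliplatin, the opposite of the direction measured here, and its place is no independent observation.

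MAT2A, the methionine adenosyltransferase of most tissues, and ARG2, the mitochondrial arginase, were the lowest of these 16 at -2.21 ± 2.65 and -1.74 ± 1.51, and MAT2A was at -5.27 in replicate 1 against -0.61 and -0.75 in the others. SAT2 and SATL1, relatives of SAT1, were at -0.98 ± 0.32 and -0.96 ± 0.52. OAT, which turns ornithine away from putrescine, was at 2.25 ± 2.19, MAT2B, a regulatory subunit, at 2.57 ± 1.91 and ALDH9A1, an aldehyde dehydrogenase acting on polyamine-derived aldehydes, at 0.31 ± 2.30, the last smaller than its spread. The median of the 16 genes was 0.21 ± 0.15, or 0.00 relative to all genes.

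By the root mean square difference of the 3 fold changes, the most similar gene was CHSY1 for SAT1 (0.19 on the log2 scale), HSD17B7 for SMOX (0.31), HYAL2 for ODC1 (0.03) and ACACA for AMD1 (0.05). VKORC1L1 was nearest to SRM (0.14), COX4I2 to SMS (0.11) and TKTL2 to PAOX (0.08). None of these is a polyamine enzyme, and with 3 values that share a library such likeness is a description only.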

How the data were processed

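The authors amplified the sgRNA region of genomic DNA by PCR, sequenced it and deposited raw counts per sgRNA for 1 PBS and 3 oxaliplatin libraries. Per the labels MAGeCK was used, and neither a version nor settings could be taken from the labels, the paper or the files. The labels also name a mouse genome build, which these count files do not need. No molecular identifiers were used, so PCR copies of 1 molecule count several times, and every interval or floor reflects counting error alone. Mean depth was 1251 counts per sgRNA with PBS and 3859, 1469 and 1561 in oxaliplatin replicates 1, 2 and 3.

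Genes were matched by symbol, and all 7 are current RefSeq symbols. For fold changes, each oxaliplatin library and the PBS library were scaled by median ratios as in MAGeCK, with a pseudocount of 1, and sgRNAs at 0 in both were left out. SD covers the 3 oxaliplatin libraries. edgeR 4.0.16 (R 4.3.3, TMM scaling) tested sgRNAs with at least 10 counts in all, and counts summed per entry. The SE is the absolute log2 fold change over the square root of edgeR's F. Alternatives used DESeq2 1.42.0, other scalings, pseudocounts (0.5, 10 or 50), PBS minimums (3, 30 or 100), summaries and libraries. Tables were handled with pandas 2.3.3, intervals with scipy 1.17.1, arrays with numpy 2.4.6 and plots with matplotlib 3.10.9, under Python 3.11.15. The edgeR step was tested on simulated data. Named were all 7 members with their sgRNAs, neighboring pathway genes with a called sgRNA or the 2 lowest or highest fold changes (SAT2 and SATL1 were added after their values were seen), and the gene nearest to each member. Members, lists and tests were chosen with earlier results of these data known.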

Additional observations from a re-analysis of the deposited data

How the results depend on the processing

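The difference between synthesis and breakdown genes, 0.10 on the log2 scale, ranged from -0.68 with the mean over sgRNAs to 0.97 with counts summed over them. It was smaller than its SD (1.07) with the median over all sgRNAs of each gene. It exceeded its SD with at least 30 PBS counts (0.91, SD 0.26), at least 100 (0.85, SD 0.28) and summed counts (0.97, SD 0.46). These SDs leave out the error of the library labelled PBS, which the 3 values share. The PBS minimums also pick guides by the count that each fold change divides by. A class difference can therefore not be read from these values, and none was tested. The 4 polyamine sgRNAs called higher became 0 with total-count scaling, 0 with at least 3 or 100 PBS counts (which leaves them out by construction) and 1 with the size factors of DESeq2, and leaving out 1 oxaliplatin replicate gave 1 to 8 higher and 0 to 2 lower. Over all sgRNAs, 592 became 0 with total counts and 0 with at least 3 or 100 PBS counts (1467, 294 and 46 at an unadjusted p under 0.05 in edgeR), DESeq2 gave 2027 higher and 29 lower, and leaving out 1 replicate gave 347 to 2731 higher and 0 to 1096 lower. On summed counts DESeq2 called 1 polyamine gene higher (123 higher and 37 lower of all entries), and leaving out 1 replicate gave 0 to 3 polyamine genes higher and 0 to 1 lower (0 to 417 and 0 to 331 of all). The fold change of SMOX was -1.13 with at least 30 or 100 PBS counts, that of PAOX 1.08 with the mean over sgRNAs and -0.21 with TMM, that of ODC1 0.39 with summed counts, and that of SMS 0.20 with TMM, 1.52 with the mean, 0.055 with summed counts and -0.89 or -1.16 with at least 30 or 100 PBS counts. TMM and total counts for the guides below PBS in all 3 libraries were chosen after seeing the data, and total counts changed none of these counts for SAT1 or either class. In edgeR with total counts SMS was at -0.12 on summed counts. The median of the neighboring genes was 0.73 with TMM, 0.36, -0.055 and -0.18 with pseudocounts of 0.5, 10 and 50, -0.061 with counts under 3 set to 3, -1.27 with at least 30 or 100 PBS counts, 1.03 with the mean and -0.10 with summed counts. None of these is relative to all genes, whose median also moved, from 0.20 with median ratios to 0.79 with TMM. Relative to all genes, SMOX was at -0.16 and -0.15 with at least 30 and 100 PBS counts. PAOX was at -0.23 with the mean and between -1.23 and -0.18 across all settings, so it stayed below the median. SMS was at -0.59 with TMM, against -0.61 with median ratios. It was at 0.20 with the mean, 0.19 with summed counts, and 0.074 and -0.18 with at least 30 and 100 PBS counts. ODC1 was at 0.53 with summed counts. Over all sgRNAs with at least 100 PBS counts the median was -0.96. Where no construction is named, the cause was not tested. No paired analysis was possible because the single PBS library shares at most 1 number with the oxaliplatin libraries. A guide scarce with PBS could hardly be called lower. Among guides with at least 100 PBS counts, edgeR called 0 lower and 0 higher (34 and 46 at an unadjusted p under 0.05). Why none was called lower was not tested.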
